A study of Mus musculus with 24 samples.

Results

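The 10 genes described here are the parts of the phosphate reabsorption machinery of the kidney that had been listed by symbol, out of 53392 genes in the deposited quantification. They are 4 sodium-phosphate cotransporters (Slc34a1, Slc34a3, Slc20a1, Slc20a2), the phosphate exporter Xpr1, the scaffold proteins Slc9a3r1 and Pdzk1, and 3 genes of hormone reception (Pth1r, Kl, Fgfr1). In GRCm38, by the GENCODE M21 annotation, the cotransporter genes are Slc34a1 at chr13:55398187-55415592, Slc34a3 at chr2:25228898-25234364, Slc20a1 at chr2:129198764-129211616 and Slc20a2 at chr8:22476788-22569612. The exporter and scaffold genes are Xpr1 at chr1:155275701-155417415, Slc9a3r1 at chr11:115163341-115181181 and Pdzk1 at chr3:96829284-96870926. The receptor genes are Pth1r at chr9:110722085-110747145, Kl at chr5:150952607-150993817 and Fgfr1 at chr8:25513654-25575718. All 10 passed the filter on low counts in every comparison. The libraries hold poly-A RNA from kidneys of FVB mice of both sexes, either sham controls (labelled as no injury) or mice with ischemic acute kidney injury (labelled IRI). From each animal group, proximal tubules were collected by microdissection and endothelial cells with CD31 microbeads, after enzymatic digestion. The tubule groups each had 3 samples: sham females, sham males, injured females and injured males. The endothelial groups had 2 samples of sham females and 3 each of sham males, injured females and injured males. No allele or transgene is named for any group, and age and the time after injury are not given in the sources used here.

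Filtered phosphate is taken back mainly in the proximal tubule, where cotransporters of the brush border bring it into the cell together with sodium. PDZ scaffold proteins hold these cotransporters at the membrane. Parathyroid hormone, through its receptor Pth1r, and the bone hormone FGF23, through FGF receptors with klotho (Kl) as co-receptor, reduce the amount of cotransporter in the brush border and so let phosphate pass into the urine.

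The 23 libraries held 32592517 to 54906972 estimated reads each, and the least covered of the 10 genes, Slc34a3, had 237 to 4316 reads per library. The labels of the tubule libraries fitted their markers: 12 proximal tubule markers summed to 3286 to 9612 TPM (a level scaled by transcript length within each library) and 12 endothelial markers to 38.2 to 154 TPM. Endothelial markers did not lead in the endothelial isolates: they summed to 156 to 740.0 TPM there, against 2695 to 7716 TPM for the proximal tubule markers and 2721 to 6933 TPM for 10 markers of the thick ascending limb and distal tubule. No marker of these lists was at 0 in every library of an isolation. The endothelial isolates are therefore called CD31 isolates below. In bulk RNA, fewer cells of a type and less RNA per cell cannot be told apart.

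**Figure D1:**
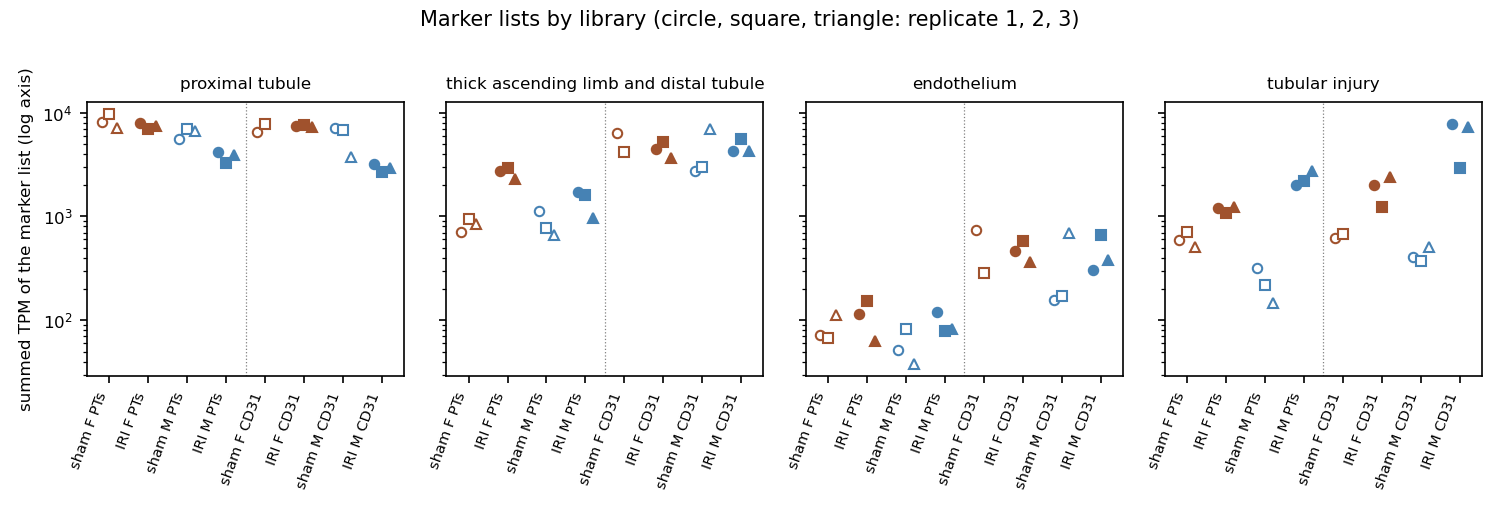
Summed TPM of 4 marker lists (vertical axis, log scale) in each library of the 8 groups (horizontal axis, tubule groups left and CD31 isolates right of the dotted line), with open points for sham, filled points for injury, brown for females and blue for males. Proximal tubule markers lay at about the same height in both isolations, from 2695 to 9612 TPM, and endothelial markers did not pass 740 TPM in any library.

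A total of 4 libraries stood apart from their groups. The injured male tubule replicate 3 correlated with its own group at 0.906 and 0.920 (log2 CPM over genes with a mean above 1 CPM; genes are not independent) and at 0.965 each with sham male tubule replicate 2 and with injured male CD31 isolates 1 and 3, its highest values. The injured male CD31 isolate replicate 2 correlated with its own group at 0.875 and 0.883 and best with injured male tubule replicate 1, at 0.954. Its endothelial markers summed to 660.3 TPM, above both other isolates of its group, while those of injured male tubule replicate 3 summed to 81.9 TPM, against 121 and 78.6 TPM in the other injured male tubules. Distal markers summed to 5512 TPM in that isolate and 973 TPM in that tubule library, the highest of its isolate group and the lowest of its tubule group. Collecting duct markers summed to 239, 79.1 and 230.3 TPM in injured male isolates 1, 2 and 3 and to 99.8, 106 and 130.1 TPM in the tubules, so isolate 2 lay below the tubule libraries. Each of these 2 libraries thus correlated best with libraries that include the other isolation of injured males, and their endothelial and distal markers lay on the side of their labels. Whether labels were exchanged was not tested, and no library was relabelled. Sham male CD31 isolate replicate 3 correlated with its own group at 0.935 and 0.946 and best with sham female CD31 isolate replicate 1, at 0.966. In sham male tubule replicate 3, the transcript CT010467.1, a gene chosen after its value was seen, took 8.53% of reads against 0.706 to 2.71% in the other tubule libraries. Calls of the 10 genes that rest on these libraries are given with and without them.

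In the tubules, Slc34a1, which encodes NaPi-IIa, the main phosphate cotransporter of the mouse brush border, was the most abundant of the 10 genes per transcript length. It lay at 580.0 to 1626 TPM over the 12 tubule libraries, with a median of 1251 TPM. Pdzk1 (NHERF3), a scaffold with several PDZ domains, came next with a median of 475 TPM, and Pth1r, the parathyroid hormone receptor, with 197 TPM. The ranges of these 3 genes overlapped from each to the next. The scaffold Slc9a3r1 (NHERF1), at 69.9 to 112 TPM, and Kl, at 20.3 to 89.9 TPM, overlapped in range. Slc34a3, which encodes the other brush border cotransporter NaPi-IIc, had a median of 26.3 TPM and a range of 5.50 to 51.0 TPM. The last 4 genes had medians between 9.20 and 14.9 TPM with overlapping ranges: Fgfr1, Xpr1, Slc20a1 (Pit-1) and Slc20a2 (Pit-2), the last a pair of cotransporters found in most tissues. Their order among each other is therefore not resolved, and Slc20a1 had the widest spread, 5.56 to 94.9 TPM.

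**Figure D2:**
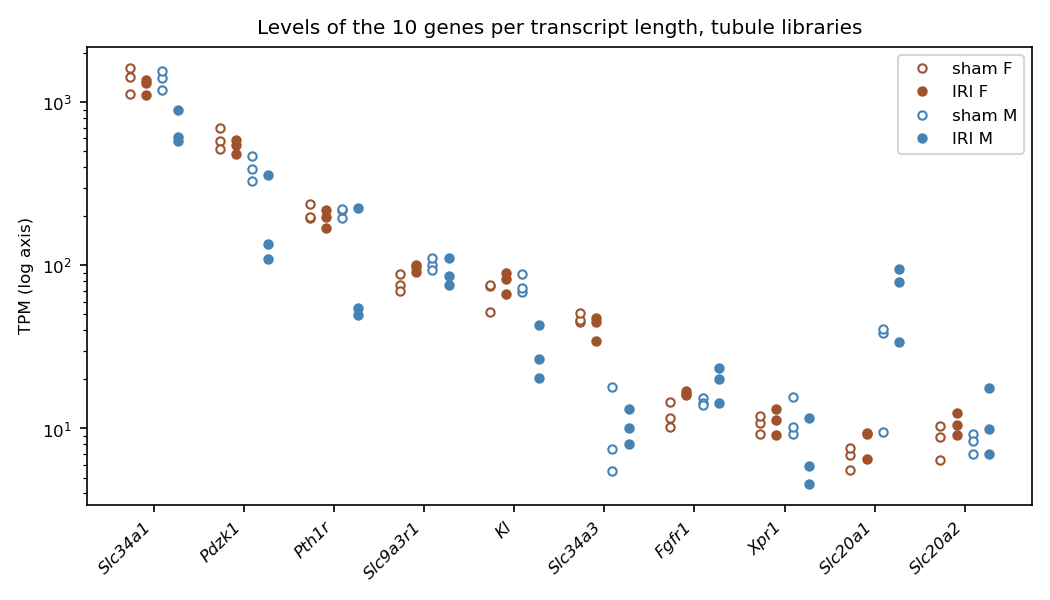
Level per transcript length (TPM, log axis) of each gene in the 12 tubule libraries, ordered by median, with 1 point per library and the 4 groups side by side. Slc34a1 lies at 580 to 1626 TPM, and Slc34a3 lies at 34.5 to 51.0 TPM in females against 5.50 to 18.1 TPM in males.

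The cotransporter Slc34a1, the scaffold Pdzk1 and the co-receptor Kl were the members lower in injured male tubules, so the 250 bases before their RefSeq starts are shown (GRCm38.p6, 5′ to 3′ on the gene's strand). The windows are chr13:55399398-55399647 for Slc34a1, chr3:96829815-96830064 for Pdzk1 and chr5:150952357-150952606 for Kl, all on the plus strand. The Slc34a1 and Pdzk1 windows lie inside these genes as placed by GENCODE above, past the annotated gene start. The Kl window lies directly before its gene. Capitals mark matches, on either strand, to 6 short motifs that were searched for.
Slc34a1: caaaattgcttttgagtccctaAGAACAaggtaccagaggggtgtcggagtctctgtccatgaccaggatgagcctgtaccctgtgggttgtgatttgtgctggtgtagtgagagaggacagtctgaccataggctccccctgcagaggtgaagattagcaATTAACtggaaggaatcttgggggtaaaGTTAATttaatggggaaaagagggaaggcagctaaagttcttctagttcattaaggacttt
Pdzk1: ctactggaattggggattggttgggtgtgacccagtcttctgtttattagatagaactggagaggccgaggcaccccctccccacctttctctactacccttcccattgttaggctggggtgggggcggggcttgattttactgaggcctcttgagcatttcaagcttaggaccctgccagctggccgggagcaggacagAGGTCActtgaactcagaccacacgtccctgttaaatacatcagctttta
Kl: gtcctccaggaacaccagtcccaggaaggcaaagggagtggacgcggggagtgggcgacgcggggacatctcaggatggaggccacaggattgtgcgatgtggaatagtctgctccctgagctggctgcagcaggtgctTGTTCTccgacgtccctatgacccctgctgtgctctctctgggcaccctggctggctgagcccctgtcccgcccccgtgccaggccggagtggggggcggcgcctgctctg
The Slc34a1 window held the HNF1 half-site GTTAAT at 2 places, whose first bases lie 89 and 61 bases before the start, and the steroid receptor half-site AGAACA at 228 bases. RefSeq gives Pdzk1 a second start, whose window at chr3:96831921-96832170 held none of the 6 motifs. The Pdzk1 window shown, that of the upstream start, held the nuclear receptor half-site AGGTCA at 50 bases, and the Kl window AGAACA at 111 bases. Of 32841 RefSeq windows of this length, 6.43% held GTTAAT, 14.0% AGGTCA and 16.1% AGAACA. The AP-1 motif TGANTCA, the TATA box TATAAA and the E-box CACGTG, in 6.75%, 12.4% and 6.02% of windows, were not among the letters of these 3 windows. A match describes letters and is not evidence of a binding site. Of the 10 genes, 8 had a RefSeq window.

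In sham tubules, males and females differed in 1 of the 10 genes, Slc34a3, against a background of 5.80% of 18369 genes tested (adjusted p under 0.05 in edgeR's quasi-likelihood test, the rule for every call below). Slc34a3 stood at 103, 93.6 and 99.0 CPM (reads of a gene scaled to library size) in the 3 sham females and at 17.5, 14.6 and 38.9 CPM in the 3 sham males. All female libraries lay above all male ones. The log2 difference, males minus females, was -2.06 ± 0.34 (SE; edgeR adjusted p = 0.00457), and it was -2.62 (edgeR adjusted p = 0.000449) without sham male replicate 3, the highest male library. The call held in 16 of 17 alternative analyses, with log2 values from -2.62 to -1.50. The 1 that lost it was -1.50 (edgeR adjusted p = 0.0931), with a score of 9 distal markers (the list described below, without Umod) as covariate. Slc34a1 stood at 6273, 5149 and 4484 CPM in sham females and 4816, 5232 and 5845 CPM in sham males, and the log2 difference was -0.0012 ± 0.24 (edgeR adjusted p = 1.00). On the TPM scale, Slc34a1 exceeded Slc34a3 by 22.1 to 36.2 times in sham females and by 86.4 to 257 times in sham males.

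Slc20a1, the Pit-1 cotransporter, went the other way without passing the threshold. It stood at 19.7, 22.6 and 30.6 CPM in sham females and at 144, 135 and 29.1 CPM in sham males. Replicates 1 and 2 of the sham males were above every female library, while replicate 3 lay within the female range. The log2 difference was 2.08 ± 0.56 (SE; edgeR adjusted p = 0.0518), and 2.53 (edgeR adjusted p = 0.0062) without that replicate. Both sequenced libraries of that replicate had few Slc20a1 reads, 606 and 546. The scaffold Slc9a3r1 had a smaller difference in the same direction, 0.41 ± 0.11 (edgeR adjusted p = 0.0591), and 0.46 (edgeR adjusted p = 0.0476) without replicate 3. For the other 7 genes, log2 differences ran from -0.47 to 0.31, none past the threshold.

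Markers of the S3 segment of the proximal tubule also parted by sex in the sham tubules, while sums of S1 and S2 markers overlapped. The 6 markers of the S1 and S2 segments summed to 739 to 933 TPM in females and 406 to 746 TPM in males, and 6 S3 markers to 236 to 259.6 and 1368 to 1627 TPM. In edgeR's test 4 of the 6 S3 markers were higher in males, and 2 of the 6 S1 and S2 markers were lower and 1 was higher. Collecting duct markers, 8 in number, summed to 411, 218 and 65.2 TPM in sham male replicates 1, 2 and 3 and to 27.4 to 85.5 TPM in sham females, so they parted the male libraries as Slc20a1 did. Aqp2, their water channel, stood at 208, 98.6 and 13.0 TPM in the sham males, and edgeR called 1 of the 8 higher in males. The part of these markers in the Slc34a3 and Slc20a1 values was not tested.

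Injury in males changed 4 of the 10 genes in the tubules, 3 lower and 1 higher. Over all genes 19.0% were called, 10.6% higher and 8.43% lower. Kl fell most, Slc34a1 and Pdzk1 also fell, and the FGF receptor gene Fgfr1 rose. The median log2 change was -0.43 over the 10 genes and -0.03 over all genes tested.

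Kl stood at 775, 753 and 973 CPM in sham males and at 318, 266 and 379 CPM in injured males. Every injured library lay below every sham library. The log2 change was -1.38 ± 0.19 (SE; edgeR adjusted p = 0.00196), and the call held in 15 of 16 alternative analyses, with log2 values from -1.51 to -0.99. It was -1.51 (edgeR adjusted p = 0.000113) without injured replicate 3 and -1.25 (edgeR adjusted p = 0.00903) without sham replicate 3. Markers of the thick ascending limb and distal tubule, where klotho is known to be abundant, summed to 664 to 1133 TPM in sham males and 973 to 1731 TPM in injured males. Of that sum Umod, which encodes the uromodulin of the thick ascending limb, took 857, 558 and 300.2 TPM in sham and 1552, 1409.6 and 779.7 TPM in injured males. The other 9 markers summed to 222 to 364 TPM in sham and 179 to 194 TPM in injured males, with every injured library below every sham library. In edgeR's test 2 of the 10 were lower and 1 higher, with a median log2 change of -0.27. With a distal marker score as covariate the log2 change of Kl was -1.04 (edgeR adjusted p = 0.0431), and Kl was then the 1 member called. With the score of the 9 markers other than Umod, an alternative chosen after seeing the data, it was -0.99 (edgeR adjusted p = 0.159), and edgeR then called 0 of the 10 genes in each of the 5 tubule comparisons. That score did not overlap between sham and injured males, so the group and the score cannot be told apart there.

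Slc34a1 stood at 4816, 5232 and 5845 CPM in sham males and at 3939.9, 2921 and 1753 CPM in injured males. The groups did not overlap, and the injured replicate 3 was the lowest library. The log2 change was -0.88 ± 0.25 (SE; edgeR adjusted p = 0.0309). It was -0.63 (edgeR adjusted p = 0.0131) without injured replicate 3 and -0.81 (edgeR adjusted p = 0.0856) without sham replicate 3. The call held in 9 of 16 alternatives, and the edgeR adjusted p was 0.0581 without sham male tubule replicate 1, 0.0759 without sham male tubule replicate 2 and 0.0983 without injured male tubule replicate 2. With the distal marker covariate the log2 change was -1.15 (edgeR adjusted p = 0.191), and without Umod in the score -0.78 (edgeR adjusted p = 0.405). Slc34a3 stood at 34.5, 19.4 and 19.8 CPM in injured males, overlapping the sham males, with a log2 change of 0.055 ± 0.33 (edgeR adjusted p = 0.926).

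Among the scaffolds, Pdzk1 stood at 1353, 1474 and 1752 CPM in sham males and 522, 469.8 and 1144 CPM in injured males. Injured replicates 1 and 2 were well below the sham range and replicate 3 nearer to it. The log2 change was -1.10 ± 0.29 (SE; edgeR adjusted p = 0.025), -1.62 (edgeR adjusted p = 1.42e-05) without injured replicate 3 and -0.99 (edgeR adjusted p = 0.0769) without sham replicate 3. With the distal marker covariate it was -0.53 (edgeR adjusted p = 0.398), and without Umod in the score -0.77 (edgeR adjusted p = 0.443). The call held in 9 of 16 alternatives, and the edgeR adjusted p was 0.0626 without sham male tubule replicate 2, 0.102 without injured male tubule replicate 1 and 0.0983 without injured male tubule replicate 2. Slc9a3r1, the other scaffold, stood at 373, 360.4 and 350.3 CPM in injured males against 410.4, 417 and 368 CPM in sham males, a log2 change of -0.14 ± 0.11 (edgeR adjusted p = 0.393).

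The parathyroid hormone receptor Pth1r split the injured males. It stood at 747, 760.1 and 719 CPM in sham males and at 202, 202 and 648 CPM in injured males. Replicates 1 and 2 were far below the sham libraries and replicate 3 was nearer to them. The log2 change of -1.08 ± 0.37 (SE; edgeR adjusted p = 0.0598) missed the threshold and was -1.88 (edgeR adjusted p = 1.3e-06) without injured replicate 3. Xpr1, which carries phosphate out of cells, had a similar pattern, with 132, 134 and 206 CPM in sham and 86.6, 71.1 and 129 CPM in injured males. Its log2 change was -0.72 ± 0.23 (edgeR adjusted p = 0.0511), and -0.99 (edgeR adjusted p = 0.00217) without injured replicate 3. Without that replicate edgeR called 8203 genes over all, against 3488 with all libraries.

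Slc20a1 and Fgfr1 had higher means after injury in males. Fgfr1, a receptor that binds FGF23 together with klotho, stood at 35.0, 37.5 and 38.2 CPM in sham males and 76.8, 61.4 and 39.2 CPM in injured males. The groups parted by a small margin at injured replicate 3. The log2 change was 0.68 ± 0.21 (SE; edgeR adjusted p = 0.0428). It was 0.91 (edgeR adjusted p = 0.000267) without injured replicate 3, 0.70 (edgeR adjusted p = 0.0927) without sham replicate 3 and 0.25 (edgeR adjusted p = 0.787) with the distal marker covariate. The call held in 5 of 16 alternatives, and the edgeR adjusted p was 0.115 without sham male tubule replicate 1, 0.103 without sham male tubule replicate 2, 0.179 without injured male tubule replicate 1 and 0.131 without injured male tubule replicate 2. Slc20a1 stood at 373, 347 and 105 CPM in injured males. The third injured library lay between the sham libraries, and the log2 change of 1.42 ± 0.54 (edgeR adjusted p = 0.0867) missed the threshold, with 1.81 (edgeR adjusted p = 0.0106) without that library and -0.09 (edgeR adjusted p = 0.974) with the distal marker covariate. Slc20a2 had a log2 change of 0.36 ± 0.19 (edgeR adjusted p = 0.188).

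**Figure D3:**
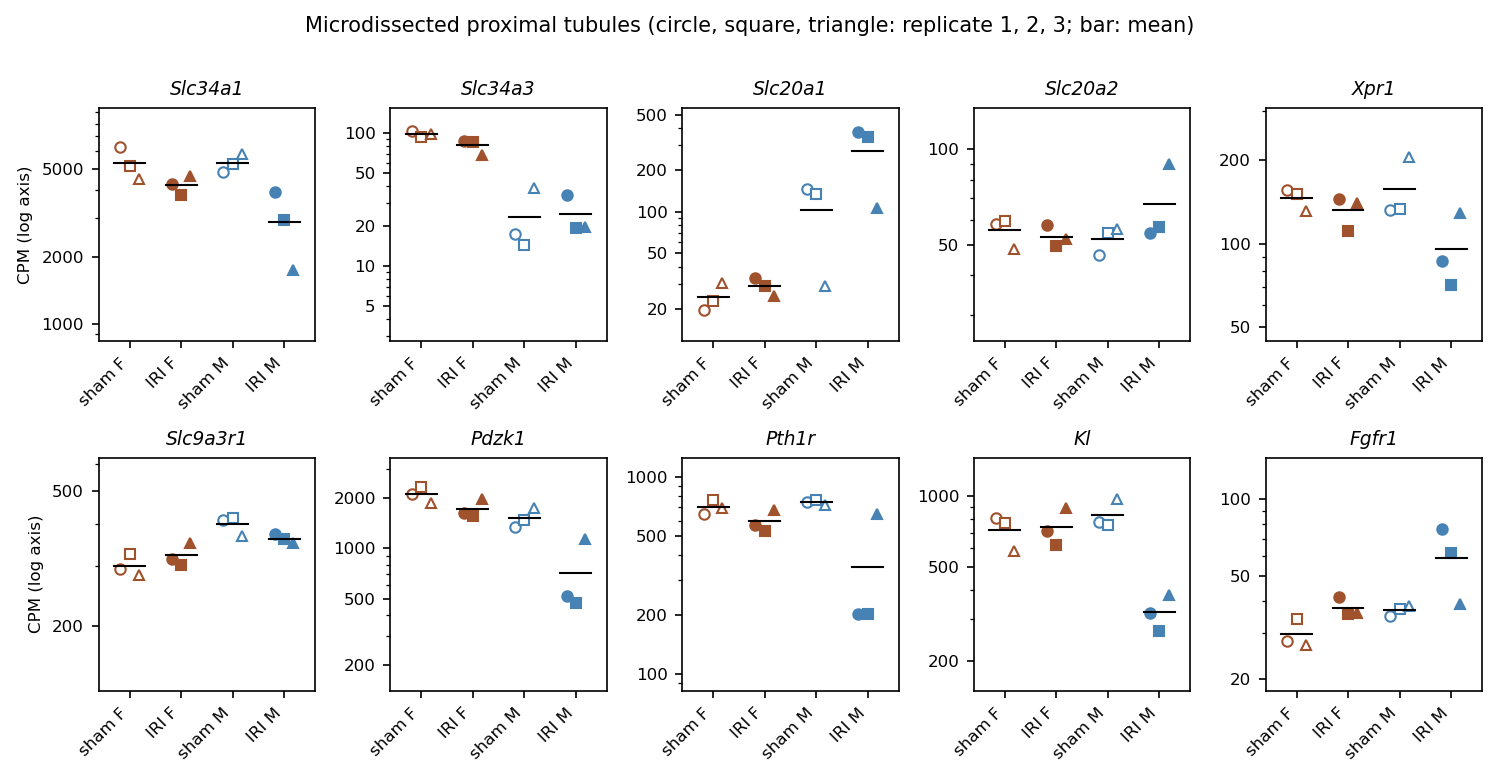
Normalised level (CPM, log axis) of each of the 10 genes in the 12 tubule libraries, by group, with a bar at the group mean, open points for sham, filled for injury, brown for females and blue for males. Injured male replicate 3 (filled blue triangle) lies apart from replicates 1 and 2 for Pth1r, Pdzk1, Slc20a1 and Xpr1, and all 3 injured male libraries lie below the other 9 for Kl.

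Markers of other cells and of tubular injury moved with the male injury comparison. The 12 proximal tubule markers summed to 5515 to 6981 TPM in sham and 3286 to 4158 TPM in injured males, and edgeR called 8 of them lower and 0 higher. By segment, the 6 S3 markers summed to 1368 to 1627 TPM in sham and 590 to 721 TPM in injured males, with 5 called lower (median log2 change -1.67). The 6 S1 and S2 markers summed to 406 to 746 and 300 to 584 TPM, with 2 called lower (median -0.67). The 8 injury markers summed to 147 to 317 and 2013 to 2752 TPM, with 6 called higher, and the 5 neutrophil markers to 0.262 to 1.93 and 5.66 to 43.2 TPM, with 4 called higher. Of 7 macrophage and leukocyte markers 2 were called higher, and of 8 collecting duct markers 1 was called lower. Their part in the changes of the 10 genes was not tested.

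In females, injury called 0 of the 10 genes in the tubules, in a comparison where edgeR called 0.0109% of genes (2 of 18369, with 2032 at an unadjusted p under 0.05). DESeq2 also called 0 of the 10. The number over all genes depended on the fit. With the female tubule groups fitted alone edgeR called 1167 genes, and again 0 of the 10. The authors' deposited table put 497 genes under an adjusted p of 0.05. Kl stood at 805, 768 and 583 CPM in sham females and 713, 618 and 888 CPM in injured females, with overlapping groups and a log2 change of 0.041 ± 0.19 (edgeR adjusted p = 0.987). Slc34a1 stood at 4289, 3813 and 4615 CPM in injured females, overlapping the sham libraries, with a log2 change of -0.32 ± 0.24 (edgeR adjusted p = 0.755). Pth1r was at 649, 761 and 691 CPM in sham and 571, 533 and 676 CPM in injured females. For the 10 genes the log2 changes lay between -0.32 and 0.35. The distal and thick limb markers summed to 713 to 952 TPM in sham and 2310.0 to 2949 TPM in injured females, the 9 without Umod to 344 to 429 and 617 to 672 TPM, and the injury markers to 503 to 713 and 1069.8 to 1219.6 TPM. The 8 collecting duct markers summed to 27.4 to 85.5 TPM in sham and 272 to 418 TPM in injured females, without overlap. Their median log2 change was 2.03, and edgeR called 0 of the 8.

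The difference between the sexes in the injury response was tested as an interaction. Of the 10 genes 1 was called, Kl, against 0.855% of all genes. Its response in males was lower than in females, with a log2 difference of -1.42 ± 0.27 (SE; edgeR adjusted p = 0.038). It was -1.56 (edgeR adjusted p = 0.00107) without injured male replicate 3 and -1.29 (edgeR adjusted p = 0.0541) without sham male replicate 3, and 14 of 21 alternatives did not call it. Leaving out any other single library than injured male replicate 3 ended the call, with edgeR adjusted p from 0.0541 to 0.11. Leaving out injured male replicate 3 gave 5 called members: Pth1r at -1.64 (edgeR adjusted p = 4.39e-05), Pdzk1 at -1.33 (edgeR adjusted p = 0.000616), Xpr1 at -0.85 (edgeR adjusted p = 0.0319), Fgfr1 at 0.55 (edgeR adjusted p = 0.0404) and Kl. That fit called 5892 genes over all, against 157 with all libraries, so 0.855% is not the background of these 5. With all libraries, the differences for Slc34a1, -0.56 ± 0.35 (edgeR adjusted p = 0.379), and Slc20a1, 1.16 ± 0.76 (edgeR adjusted p = 0.406), did not pass the threshold.

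After injury, male and female tubules differed in 5 of the 10 genes, 3 lower and 2 higher in males. Over all genes 23.3% were called, 12.8% higher and 10.5% lower. Slc20a1 stood at 33.1, 29.3 and 24.6 CPM in injured females and at 373, 347 and 105 CPM in injured males. The lowest male library was above the highest female one, and the log2 difference was 3.25 ± 0.58 (SE; edgeR adjusted p = 0.00392). Slc34a3 stood at 87.8, 86.3 and 68.9 CPM in injured females and 34.5, 19.4 and 19.8 CPM in injured males, without overlap and with a log2 difference of -1.72 ± 0.34 (SE; edgeR adjusted p = 0.00618). Slc20a1 and Slc34a3 had the same directions as between the sham sexes, with Slc34a3 called in both conditions. Slc34a1 exceeded Slc34a3 by 24.4 to 37.9 times in injured females and 57.6 to 76.2 times in injured males on the TPM scale.

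The other 3 calls in that comparison were Kl, Pdzk1 and Fgfr1. Kl was lower in injured males, with a log2 difference of -1.20 ± 0.19 (SE; edgeR adjusted p = 0.00224) and no overlap between the groups. Pdzk1, at 1636, 1562 and 1978 CPM in injured females, was also lower in injured males, at -1.28 ± 0.29 (SE; edgeR adjusted p = 0.0108). Fgfr1, at 41.6, 35.7 and 36.1 CPM in injured females, was higher in males, at 0.64 ± 0.21 (SE; edgeR adjusted p = 0.0448), though its groups overlapped at injured male replicate 3. Slc20a1, Slc34a3 and Kl were called in 16 of 17 alternatives, Pdzk1 in 15 and Fgfr1 in 6. An exception for all 5 was the score of the 9 distal markers as covariate, with which Slc20a1 was -1.87 (edgeR adjusted p = 0.94), Slc34a3 0.85 (edgeR adjusted p = 0.956) and Kl -0.08 (edgeR adjusted p = 1.00). Those markers summed to 617 to 672 TPM in injured females and 179 to 194 TPM in injured males, so the score and the sex cannot be told apart there. Leaving out any single library of the comparison but injured male replicate 3 ended the Fgfr1 call, with edgeR adjusted p from 0.0868 to 0.196. Without injured male replicate 3, the log2 values were 3.63 (edgeR adjusted p = 0.000153) for Slc20a1, -1.59 (edgeR adjusted p = 0.00536) for Slc34a3, -1.34 (edgeR adjusted p = 0.000222) for Kl, -1.80 (edgeR adjusted p = 6.71e-06) for Pdzk1 and 0.87 (edgeR adjusted p = 0.000326) for Fgfr1. Slc34a1, with a log2 difference of -0.56 ± 0.24 (edgeR adjusted p = 0.115), had -0.86 (edgeR adjusted p = 0.04) without injured male replicate 1. Pth1r and Xpr1 were also called without injured male replicate 3, at -1.56 (edgeR adjusted p = 3.22e-06) and -0.74 (edgeR adjusted p = 0.0109). That fit called 8522 genes over all, against 4271 with all libraries. Other markers moved in the same comparison. In edgeR's test 5 of 10 distal markers and 4 of 8 collecting duct markers were lower in males, and of 12 proximal tubule markers 6 were lower and 1 higher. Higher in males were 6 of 8 tubular injury markers (median log2 difference 2.84), 3 of 5 neutrophil markers (median 3.30) and 2 of 7 macrophage and leukocyte markers. The part of the lists other than the distal one was not tested.

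**Figure D4:**
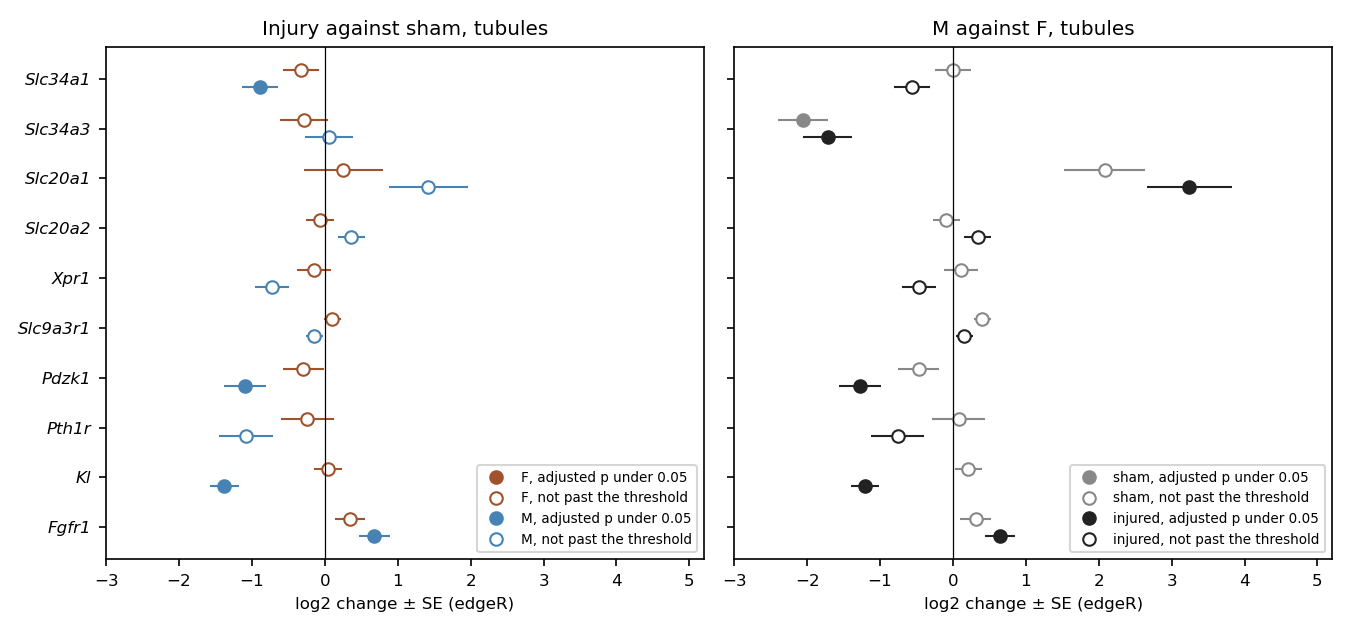
Log2 changes with standard errors (horizontal axis, edgeR) of the 10 genes in tubules, for injury against sham by sex (left) and for males against females by condition (right), with filled points where the adjusted p was under 0.05. In females no point is filled, and Slc34a3 is filled in both male against female comparisons, at -2.06 and -1.72.

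The reads of most of the genes came mainly from 1 transcript each, by the authors' estimates. Pdzk1-201 held 82.1 to 96.2% and Pth1r-204 held 80.2 to 93.8% of their gene's reads in tubule libraries. Slc20a1 was more divided: Slc20a1-201 held 49.9 to 84.9%, and Slc20a1-202 held 16.3, 18.1 and 25.7% in the 3 sham males and 0% in the 3 sham females. After injury the sexes overlapped, with Slc20a1-202 at 2.76, 14.06 and 0% in females and 0.83, 0.25 and 8.84% in males. These shares are estimates for overlapping transcripts and were not tested. The annotation also places a gene on the other strand over the start of Slc20a1, and whether counting used strand is not given in the sources used here.

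A list of 67 other genes of phosphate handling and its hormones, of which 61 were tested in tubules, was counted beside them. In injured males 20 of the 61 were called (32.8%, against 19.0% of all genes). Of these, 9 were higher and 11 lower, where 10.6% and 8.43% of all genes were, with a median log2 change of 0.01. The same shares over all genes stand behind the counts of the smaller lists that follow. Among other phosphate transporters 4 of 8 were lower and 0 higher, including Slc17a3, at 358 ± 109.8 against 827 ± 14.9 CPM in injured against sham males (mean ± SD, n = 3), a log2 change of -1.21 ± 0.19 (edgeR adjusted p = 0.00301), and Slc17a1, at -0.63 ± 0.12 (edgeR adjusted p = 0.00756). Of the 8 scaffold and membrane partners 3 were lower and 1 higher. The higher one was Ezr, the ezrin that ties NHERF proteins to actin, at 1.55 ± 0.39 (edgeR adjusted p = 0.0214), with overlapping groups. Pdzd3, a PDZ protein of the same scaffold family, fell by 1.36 ± 0.42 (edgeR adjusted p = 0.0449) on the log2 scale. Of the 16 alternatives, Slc17a3 and Slc17a1 were called in 13 each, Ezr in 8 and Pdzd3 in 6. The Ezr and Pdzd3 calls were lost without any 1 of the male libraries except injured replicate 3, with edgeR adjusted p from 0.0537 to 0.0878 and from 0.0801 to 0.166.

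The receptor side of that list moved as follows in injured male tubules. Of 4 tested FGF receptor and adaptor genes, 2 were lower, Fgfr4 at -1.37 ± 0.25 (edgeR adjusted p = 0.00607) and Fgfr3 at -0.46 ± 0.15 (edgeR adjusted p = 0.0479), and 1 was higher. Of 8 genes that FGF receptor signalling is known to induce, 3 were higher and 0 lower, among them Spry2 at 1.74 ± 0.31 (edgeR adjusted p = 0.00563), while Egr1 was at 0.34 ± 0.52 (edgeR adjusted p = 0.677). Of 5 vitamin D genes 1 was called, Cyp24a1, the enzyme that breaks down active vitamin D. It stood at 162 ± 41.4 against 7.69 ± 4.83 CPM in injured against sham males, a log2 change of 4.40 ± 0.88 (edgeR adjusted p = 0.00939). Cyp27b1, the enzyme that makes active vitamin D, was low, at 3.92 ± 1.15 against 2.42 ± 0.684 CPM and was not called. Fgf23 itself had 0 CPM in all tubule groups and was not tested. Of 4 inositol pyrophosphate enzymes, whose products bind Xpr1, 1 was higher, Ppip5k1 at 1.09 ± 0.14 (edgeR adjusted p = 0.00117). Of the 16 alternatives, Ppip5k1 was called in 15, Cyp24a1 in 14, Fgfr4 and Spry2 in 13 each and Fgfr3 in 3. The Fgfr3 call was lost without any 1 of the male libraries except injured replicate 3, with edgeR adjusted p from 0.0927 to 0.191.

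In injured females 0 of these 61 genes were called. Between the sham sexes 4 were called (6.56%, near the 5.80% of all genes), among them Slc17a3, higher in males at 1.09 ± 0.19 (edgeR adjusted p = 0.0053), Pdzk1ip1, which encodes a partner of Pdzk1, lower in males at -0.87 ± 0.17 (edgeR adjusted p = 0.011), and Arrb1, which encodes a beta-arrestin that binds activated receptors such as Pth1r, higher in males at 1.10 ± 0.16 (edgeR adjusted p = 0.00186). The Pdzk1ip1 call was lost without 1 library in 2 cases, with an edgeR adjusted p of 0.0533 without sham female tubule replicate 2 and 0.0615 without sham male tubule replicate 1. After injury 16 differed between the sexes (26.2%, near the 23.3% of all genes), 5 higher and 11 lower in males, where 12.8% and 10.5% of all genes were. Those included 2 of 3 genes of proteases that shed klotho, both lower in males, of which Bace1 was at -1.21 ± 0.24 (edgeR adjusted p = 0.00621). With the score of the 9 distal markers as covariate Bace1 was at 0.47 (edgeR adjusted p = 0.968). In the interaction 1 of the 61 was called, Arrb1 (1.64%, against 0.855% of all genes), in 9 of 21 alternatives.

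In the CD31 isolates the same 10 genes kept nearly the tubule order. Slc34a1 had a median of 1075 TPM and a range of 378 to 1563 TPM over the 11 libraries, against 580.0 to 1626 TPM in the tubules. Pdzk1 followed with a median of 325 TPM, Pth1r with 203 TPM, Slc9a3r1 with 91.1 TPM and Kl with 61.9 TPM. The tubule markers given above were of like height, and how much of these reads came from endothelial cells was not tested.

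In sham mice, CD31 isolates and tubules differed in 2 of the 10 genes, against 12.3% of 21206 genes. Slc20a1 averaged 22.0 ± 4.06 CPM in 5 sham CD31 isolates and 66.9 ± 62.7 CPM in 6 sham tubule samples (SD), with overlap. In females the means were 22.4 ± 2.49 CPM in 2 isolates and 25.2 ± 5.80 CPM in 3 tubule samples, and in males 21.8 ± 5.45 and 108 ± 67.9 CPM in 3 each. Most of the pooled difference lay in the male libraries, where tubule replicates 1 and 2 were high, and the difference between the sexes in it was not tested. The log2 difference with equal weight to the sexes was -1.24 ± 0.38 (SE; edgeR adjusted p = 0.0375). Slc9a3r1 averaged 272 ± 66.7 and 366 ± 63.6 CPM, a difference of -0.44 ± 0.14 (SE; edgeR adjusted p = 0.0425). Neither call held in every alternative, with 11 of 21 for Slc20a1 and 8 of 21 for Slc9a3r1. The Slc20a1 call was lost without any 1 of the 5 CD31 isolates, sham female tubule replicate 2 or 3, or sham male tubule replicate 1 or 2, with edgeR adjusted p from 0.0515 to 0.124. The Slc9a3r1 call was lost without any 1 of the 3 sham female tubule samples, either sham female CD31 isolate, sham male CD31 isolate replicate 3, or sham male tubule replicate 1 or 2, with edgeR adjusted p from 0.0541 to 0.205. Without sham male tubule replicate 3 the edgeR adjusted p was 0.00568 for Slc20a1 and 0.0473 for Slc9a3r1, and without sham male CD31 isolate replicate 3 0.0515 and 0.0877. A total of 11 label numbers occur in both isolations. Each of these numbers joins libraries of the same sex, condition and replicate number. The labels do not say that a number marks 1 mouse, and these tests treat the libraries as independent. If a number does mark 1 mouse, the tests ignore that pairing. A fit with the label number as a block is given below. In injured mice 0 of the 10 differed, against 4.69% of genes, with 4 of the 10 at an unadjusted p under 0.05 in edgeR's test. DESeq2 called 1. For Slc20a1 and Slc34a1 the edgeR adjusted p then fell under 0.05 when injured male tubule replicate 3 or injured male CD31 isolate replicate 2 was left out, 0.0432 without injured male CD31 replicate 2 and 0.0334 without injured male tubule replicate 3 for Slc20a1 and 0.0432 without injured male CD31 replicate 2 and 0.049 without injured male tubule replicate 3 for Slc34a1. In the sham comparison, 9 of 62 pathway genes were higher (14.5%, against 10.4% of all genes) and 2 lower (3.23%, against 1.86%) in CD31 isolates, among them Slc9a3r2 (NHERF2), a scaffold related to Slc9a3r1, at 120.1 ± 70.4 against 22.7 ± 5.49 CPM, a log2 difference of 2.43 ± 0.37 (edgeR adjusted p = 0.000267). Endothelial markers were higher in CD31 isolates in 11 of 12 cases. So were 3 of 5 podocyte, 4 of 10 distal, 4 of 8 collecting duct and 2 of 7 macrophage and leukocyte markers, with 0 lower in these lists. Of 12 proximal tubule markers 0 were called. Podocyte markers summed to 109 to 314 TPM in the CD31 isolates and 1.87 to 57.9 TPM in the tubule libraries, both conditions together. The part of these cell types in the Slc9a3r2 difference was not tested.

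Injury in males called 1 of the 10 genes in CD31 isolates, Slc20a1, against 0.864% of 19910 genes. Slc20a1 stood at 17.5, 24.8 and 27.0 CPM in sham males and 75.9, 137 and 53.4 CPM in injured males. All injured libraries lay above all sham libraries. The log2 change was 1.94 ± 0.38 (SE; edgeR adjusted p = 0.0448), and 1.48 (edgeR adjusted p = 0.0436) without injured replicate 2, the highest library, and 2.07 (edgeR adjusted p = 0.038) without sham replicate 3. With a tubule marker score as covariate it was 1.36 (edgeR adjusted p = 0.477). The call held in 6 of 13 alternatives, and the edgeR adjusted p was 0.199 without sham male CD31 replicate 1, 0.187 without sham male CD31 replicate 2 and 0.0688 without injured male CD31 replicate 1.

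Slc34a1 and Kl had lower means in the same isolates but did not pass the threshold. Slc34a1 stood at 4597, 4706 and 2688 CPM in sham males and 1254, 2238 and 1477 CPM in injured males, without overlap, and its log2 change was -1.27 ± 0.29 (edgeR adjusted p = 0.0716). Without injured replicate 2 it was -1.55 (edgeR adjusted p = 0.0341), and without sham replicate 3 -1.49 (edgeR adjusted p = 0.0145). Kl stood at 843, 872 and 522 CPM in sham males and 341, 223 and 372 CPM in injured males, also without overlap, with a log2 change of -1.26 ± 0.28 (edgeR adjusted p = 0.0683), and -1.46 (edgeR adjusted p = 0.0169) without sham replicate 3. Proximal tubule markers summed to 3729 to 7029.7 TPM in sham and 2695 to 3206 TPM in injured male isolates. Tubular injury markers summed to 373 to 503 TPM in sham and 2902 to 7836 TPM in injured male isolates, with 4 of 8 called higher. Of 7 macrophage and leukocyte markers 1 was called higher and of 5 neutrophil markers 0, the latter at 19.5, 164 and 19.6 TPM in injured replicates 1, 2 and 3. Replicate 2, the highest in neutrophil markers, was also the highest in Slc20a1, and the part of these markers was not tested. With the tubule marker covariate the log2 changes were -0.60 (edgeR adjusted p = 0.632) for Slc34a1 and -0.33 (edgeR adjusted p = 0.732) for Kl. Pth1r and Pdzk1 again parted by library, with injured replicate 2 at 124 CPM for Pth1r and 211 CPM for Pdzk1, below replicates 1 and 3 at 639 and 633 CPM for Pth1r and at 809 and 819 CPM for Pdzk1.

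After injury, male and female CD31 isolates differed in 2 of the 10 genes, against 1.50% of genes. Slc34a1 stood at 3705, 4968 and 4700.0 CPM in injured females and was lower in injured males, with a log2 difference of -1.43 ± 0.29 (SE; edgeR adjusted p = 0.0372), and -1.71 (edgeR adjusted p = 0.0208) without injured male replicate 2. Slc20a1 stood at 38.5, 20.4 and 20.7 CPM in injured females and was higher in injured males, with a log2 difference of 1.74 ± 0.37 (SE; edgeR adjusted p = 0.0476), and 1.28 (edgeR adjusted p = 0.0724) without that replicate. Neither gene's groups overlapped. The Slc34a1 call was lost without any other single library of the comparison (edgeR adjusted p from 0.0892 to 0.157), and the Slc20a1 call without any but injured male replicate 3 (from 0.0624 to 0.222). With the tubule marker covariate the values were -0.54 (edgeR adjusted p = 0.671) and 0.91 (edgeR adjusted p = 0.624), so both calls ended. Slc34a3 stood at 26.7, 41.3 and 86.0 CPM in injured females and 4.14, 19.1 and 13.9 CPM in injured males, a log2 difference of -2.05 ± 0.73 (edgeR adjusted p = 0.228).

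The remaining CD31 comparisons called 0 of the 10 genes. These were injury in females, against 0% of genes called by edgeR (475 genes had an unadjusted p under 0.05, and DESeq2 called 33), sham males against sham females, against 0.432%, and the male response to injury set against the female one, against 0% (1294 genes had an unadjusted p under 0.05, and DESeq2 called 62). DESeq2 called 0 of the 10 in each of these 3. Slc34a3 stood at 12.4 and 52.6 CPM in the 2 sham female isolates and 39.4, 32.3 and 9.96 CPM in the 3 sham male isolates, with overlap and a log2 difference of -0.25 ± 0.78 (edgeR adjusted p = 0.974). Slc20a1 stood at 24.5 and 21.8 and 17.5, 24.8 and 27.0 CPM, with a log2 difference of -0.0024 ± 0.41 (edgeR adjusted p = 1.00). Whether these sex differences differed from those in tubules was not tested. Of the pathway genes, 0 of 62 were called in any CD31 comparison of injury or sex.

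**Figure D5:**
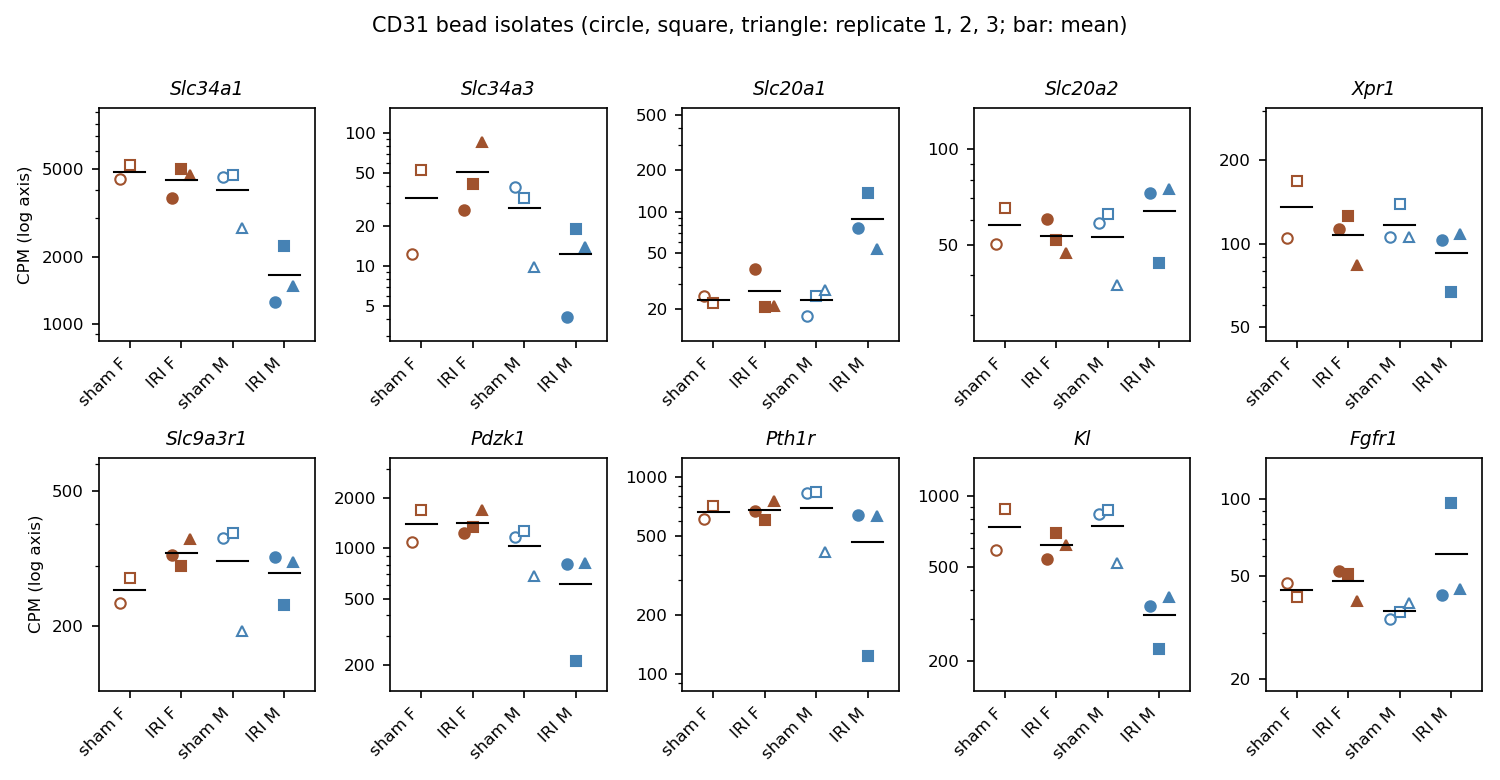
Normalised level (CPM, log axis) of each gene in the 11 CD31 isolates, by group, drawn as for the tubules and on the same vertical range for each gene. Slc34a1 and Kl are lowest in the 3 injured male isolates and Slc20a1 highest, and injured male replicate 2 (filled blue square) is the lowest library for Pth1r and Pdzk1.

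The authors' deposited tables, made with DESeq2, list adjusted p-values for the same comparisons. For injury in male tubules the authors' deposited table put 5 of the 10 genes under 0.05, among 22.8% of its genes: Kl, Pdzk1, Slc34a1, Pth1r and Xpr1. In the authors' deposited table Slc20a1 had an adjusted p of 0.0502 and Fgfr1 0.124 there. For sham male against female tubules, the authors' deposited table had Slc34a3, Slc20a1 and Slc9a3r1 under 0.05, among 8.74% of its genes. After injury, it was Slc34a3, Slc20a1, Pdzk1 and Kl in the authors' deposited table, among 24.9%. In both male injury and injured male against female CD31 comparisons, the authors' deposited tables had Slc34a1, Slc20a1 and Kl under 0.05, among 5.30% and 5.82%. In the authors' deposited tables on females after injury, 0 of the 10 were under 0.05 in either isolation. Over all genes 2.5% were under 0.05 in tubules and 0.316% in CD31 isolates.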

How the data were processed

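Per the submitters' processing notes, the authors quantified reads with Salmon 0.13.1 against GRCm38. Each deposited file gives per transcript an estimated count (not normalized), a TPM and an effective length. The authors' deposited tables, made with DESeq2 per the same notes, give a log2 fold change and an adjusted p-value. The labels describe separate mice, 3 of each sex for a condition; 2 sham female CD31 isolates were analysed here. For replicate 3 of the sham male tubules there were 2 libraries, with 21192147 and 21054285 reads, whose counts were added, as the labels describe for the authors' own test.

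The counts were added up by gene identifier, each with its symbol, and rounded. Models were fitted with edgeR 4.0.16 (R 4.3.3): TMM factors, filterByExpr with a minimum count of 10 and a minimum total of 15, a mean for each group, and quasi-likelihood tests. Tubule libraries (12), CD31 isolates (11) and all 23 libraries were fitted separately, with 18369, 19910 and 21206 genes passing the filter. Benjamini-Hochberg adjustment ran over every gene of a fit, and calls needed an adjusted p below 0.05. Standard errors are the absolute log2 change over the square root of F. CPM values use the TMM factors of their isolation, or of all libraries where isolations are compared. The scripts were tested on simulated data.

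The 10 genes, the gene lists and the naming rule were chosen with earlier results of these data known. The rule names all 10 genes, 12 fixed pathway genes, and per comparison up to 8 called pathway genes by size of change whose higher group averaged 5 CPM or more. The alternatives tried were RLE factors, dropping the low-count filter, DESeq2 1.42.0, length offsets, a replicate block, fitting the compared groups alone, using 1 technical library, marker scores (log2 summed TPM) as covariates, and leaving out single libraries. The block was the replicate number, or the label number where isolations were compared.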

Additional observations from a re-analysis of the deposited data

Results flagged for a closer look

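By edgeR's interaction test over all 18369 genes, the injury response in tubules was called different between the sexes for Kl among the 10 genes and for Arrb1 among the other pathway genes. Kl had a log2 difference, males minus females, of -1.42 ± 0.27 (edgeR adjusted p = 0.038), from changes of -1.38 in males and 0.041 in females. That call was lost in 14 of 21 alternatives, among them leaving out any single library except injured male replicate 3 (edgeR adjusted p from 0.0541 to 0.11). Arrb1 had a log2 difference of -1.42 ± 0.22 (edgeR adjusted p = 0.0253), and its call was lost in 12 of 21 alternatives, among them leaving out any 1 of 9 libraries: all 6 female ones, sham male replicates 1 and 2, and injured male replicate 2 (edgeR adjusted p from 0.0517 to 0.0896). Samples were too few per group, 2 or 3, for a test of single libraries that lie apart from their group.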

How the results depend on the processing

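With 2 or 3 samples per group, the number of the 10 members called moved with the spread of single libraries, so a member that missed the threshold is not shown to be alike in the groups compared. Slc34a3 between the sexes in tubules and Kl after injury in male tubules were called under every alternative but 1, a covariate of 9 distal markers without Umod. That covariate, chosen after seeing the data, gave 0 members called in each of the 5 tubule comparisons and turned the sign of some injured sex differences: Slc34a3 0.85, Slc20a1 -1.87, and among pathway genes Spry4 -0.85, Plcb1 0.63 and Bace1 0.47, none called. The marker score did not overlap between injured males and injured females. No called value of the members changed sign elsewhere. The causes of the moves below were not tested, except that leaving out a library lowers the number of samples.

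For injury in male tubules (4 members called), DESeq2 called 7 members, a fit of only the groups compared 1 and the distal marker covariate 1, and leaving out 1 library gave 1 to 7. Over all genes the number called moved too, from 86 to 8203 for this comparison. The share at each setting is not given, so the counts here and below are not results about the members. For sham males against females in tubules (1 member called), 2 members were called with no low-count filter, with length offsets, with only the groups compared, and with technical library 3 or 3B alone. There DESeq2 called 3 members, the distal marker covariate 3, a fit with injured male tubule replicate 3 left out 4, and leaving out 1 library of the comparison 1 to 3. The fit with injured male tubule replicate 3 left out called 2627 genes over all, against 1065 with all libraries. For injured males against females in tubules (5 members called), only the groups compared gave 3, and leaving out 1 library 4 to 7. For the sex difference in the tubule injury response (1 member called), length offsets gave 0, the distal marker covariate 5 and leaving out 1 library 0 to 5. Of the single libraries left out, injured male replicate 3 gave the 5, with 5892 genes called over all against 157 with all libraries.

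In CD31 isolates, injury in males (1 member called) gave 3 members with no low-count filter, 3 with DESeq2, and 0 with length offsets, only the groups compared or the tubule marker covariate. Leaving out 1 library gave 0 to 3. Injured males against females (2 members called) gave 4 with DESeq2, 1 with length offsets, 0 with only the groups compared or the tubule marker covariate, and 0 to 1 when 1 library was left out. Over all genes DESeq2 called 1217 for injury in males, against 172 in the main fit. For injured males against females it called 1177, against 298. For CD31 isolates against tubules in sham mice (2 members called), 1 member was called with no low-count filter, length offsets, technical library 3 alone or injured male tubule replicate 3 left out of the fit, and 0 to 2 when 1 library was left out. In injured mice (0 members called), 1 member was called with no low-count filter or DESeq2, 1 with sham male tubule replicate 3 left out of the fit, an alternative chosen after seeing the data, and 0 to 2 when 1 library was left out. The number stayed at 0 under all alternatives run for injury in females in either isolation, for sham CD31 isolates between the sexes and for the sex difference in the CD31 injury response.

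Replicate numbers were also fitted as a replicate block within each isolation. The members called were then 5 for injury in male tubules, 0 in female tubules, and 1 and 4 for the sham and injured sex differences in tubules. For the tubule sex difference in response it was 0, and 0 in each CD31 comparison. For CD31 isolates against tubules the block was the label number instead, and 1 and 0 members were called in sham and injured mice. Of 18 pairs of tubule libraries with the same replicate number, 4 had deviations correlated over 0.1, and of 15 CD31 pairs 4. Those pairs join different groups, so they cannot show whether libraries come from 1 mouse. Of 11 pairs of a tubule and a CD31 library with the same number in the label, 6 were over 0.1 (median 0.10). Of 22 pairs with different numbers it was 6 (median -0.08). Of the 22 libraries with a partner of the same label number, 11 correlated best with their own number. Each shared number joins a tubule and a CD31 library of the same sex, condition and replicate number. So few pairs cannot settle by correlation whether a label number marks 1 mouse, and pairing by mouse remains possible.

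The named pathway genes were run under the same alternatives, also chosen after seeing the data. Of their 34 calls, 5 held in every alternative and 30 in at least as many as not.

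Over all genes, the number called ran from 86 (the covariate without Umod) to 8203 (without injured male replicate 3) for injury in male tubules. In female tubules it ran from 0 to 1167 (only the groups compared). Between the sexes it ran from 303 to 2627 in sham and from 0 to 8522 in injured tubules, and from 0 to 5892 in the tubule interaction. In CD31 isolates it ran from 0 to 1217 for injury in males, from 0 to 33 in females, from 25 to 392 and from 45 to 1177 between sham and injured sexes, and from 0 to 62 in the interaction. For CD31 isolates against tubules it ran from 1388 to 3592 in sham and from 399 to 1895 in injured mice.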

Other observations

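Of 61 pathway genes tested, 16 differed between injured male and injured female tubules in edgeR's test (26.2%, near the 23.3% of all genes). Fam20c, a secretory pathway kinase that phosphorylates FGF23, stood at 23.7 ± 7.79 against 66.6 ± 3.92 CPM in males against females (mean ± SD, n = 3), a log2 difference of -1.49 ± 0.21 (edgeR adjusted p = 0.0013). On the side of Pth1r signalling, Adcy6, an adenylyl cyclase, was lower in males at -1.12 ± 0.19 (edgeR adjusted p = 0.00317), as was Plcb1, a phospholipase C, at -1.22 ± 0.25 (edgeR adjusted p = 0.00756). The kinase gene Prkca was higher in males at 1.21 ± 0.29 (edgeR adjusted p = 0.0144). Ezr, whose protein binds NHERF scaffolds, was higher in males at 1.88 ± 0.39 (edgeR adjusted p = 0.00779). Of 17 alternatives, Fam20c and Adcy6 were called in 16, Plcb1 and Ezr in 15 and Prkca in 12, and the Prkca call was lost without 1 library in 3 cases, with an edgeR adjusted p of 0.0546 without injured female tubule replicate 1, 0.0572 without injured female tubule replicate 2 and 0.0607 without injured male tubule replicate 1.

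The 2 libraries made from sham male tubule replicate 3 give a measure of technical spread for the 10 genes. Before any scaling beyond depth, Pdzk1 stood at 1333 and 1952 CPM in them, a log2 difference of 0.55. Slc9a3r1 differed by 0.40, Slc34a3 by -0.33, and Kl by -0.05 on the same scale. With 1 such pair there is no test.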
